A study of Homo sapiens with 6 samples.

Results

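The proteasome genes were taken as the rows whose gene name is PSM, then 1 letter from A to G, then a number. The rule found 48 genes among the 62754 rows of each deposited table. They fall into 10 subgroups by the place of their product in the complex. The rule uses names and no measured value, but it was chosen with earlier results of these data known. The RNA came from HUDEP-2, a human line of red cell precursors in which doxycycline keeps the immortalising transgene on. Both groups grew in the same serum-free medium, which held 3 units per ml erythropoietin (EPO), 50 ng per ml stem cell factor (SCF), 1e-06 M dexamethasone and 1 µg per ml doxycycline. Cells were transduced with a lentiviral shRNA labelled MEN1sh2 (genotype MEN1 knockdown, 3 biological replicates) or with a control shRNA labelled Controlsh (genotype WT, 3 biological replicates), and both were selected with 2 µg per ml puromycin for 48 h, starting 24 h after infection. The former are called knockdown cells below. MEN1 encodes menin, a subunit of the MLL histone methyltransferase complexes. The labels name 1 hairpin against MEN1, so what followed from less menin and what the hairpin did elsewhere cannot be told apart.

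The proteasome degrades proteins tagged with ubiquitin. Its barrel-shaped core has outer rings of alpha subunits, encoded by PSMA genes, around inner rings of beta subunits, encoded by PSMB genes, of which a few carry the cutting sites. In cells exposed to interferon the cutting subunits are exchanged for the immunoproteasome subunits, which favour peptides for display on MHC class I. A regulatory particle of ATPases (PSMC) and non-ATPases (PSMD) unfolds the substrate and feeds it into the core. Other caps, the PSME activators, can take its place, and dedicated chaperones (PSMG and several PSMD products) put the parts together. Red cell precursors rely on this system while they remodel their proteins and clear unpaired globin chains.

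The deposited unit used below is TPM, transcripts scaled to a sum of 1000000 per library, which is scaled for gene length, so levels of different genes can be set side by side. Genes reaching a TPM of 1 in 3 or more of the 6 libraries were tested, on the log2(TPM + 1) scale with limma, and "higher" or "lower" means an adjusted p under 0.05 in knockdown against control cells. MEN1 itself had TPM 6.29, 6.44 and 6.88 in the 3 knockdown libraries and 41.2, 39.6 and 37.1 in the 3 control libraries, a log2 fold change of -2.42 (SE 0.0803, limma adjusted p 8.54e-06). Depth, estimated from the deposited coverage and FPKM, came to 5.57e+09 to 1.08e+10 aligned bases per library. Of 10 erythroid markers, 7 were higher and 0 lower in knockdown cells, against 22.1% higher and 31.5% lower among all genes tested. Their summed TPM was 95907 to 107883 against 55447 to 61494 in control cells. Globin and mitochondrial genes together took 11.3% to 12.3% of TPM against 7.43% to 8.01%, and the part of that shift in the results was tested only by rescaling TPM without these genes.

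The proteasome did not move as a block. Of the 48 genes, 46 were expressed enough to be tested. PSMA8, the testis form of an alpha subunit, and PSMB11, the thymus form of a beta subunit, were listed at 0 in all 6 libraries. Of the 46, 13 were higher in knockdown cells, 13 were lower and 20 did not pass. The 26 genes past the threshold make 56.5% of those tested, close to the 53.6% of all 14294 genes tested that passed in either direction. The higher ones made 28.3% against a background of 22.1%, and the lower ones 28.3% against 31.5%. Counts in the subgroups and lists below are to be read beside these shares of all genes tested. In 28 proteasome genes (60.9%, background 61.8%) the 3 values of one group lay wholly above or below the 3 values of the other. A change of 2-fold or more past the threshold was seen in 5 genes (10.9%, background 11.9%): PSME4 rose, and PSME3, PSMG4, PSMB8 and PSMB9 fell. The median log2 fold change of the 46 was 0.03, against -0.07 over all genes tested, and the median size of the change in genes that passed was 0.56, against 0.62.

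**Figure D1:**
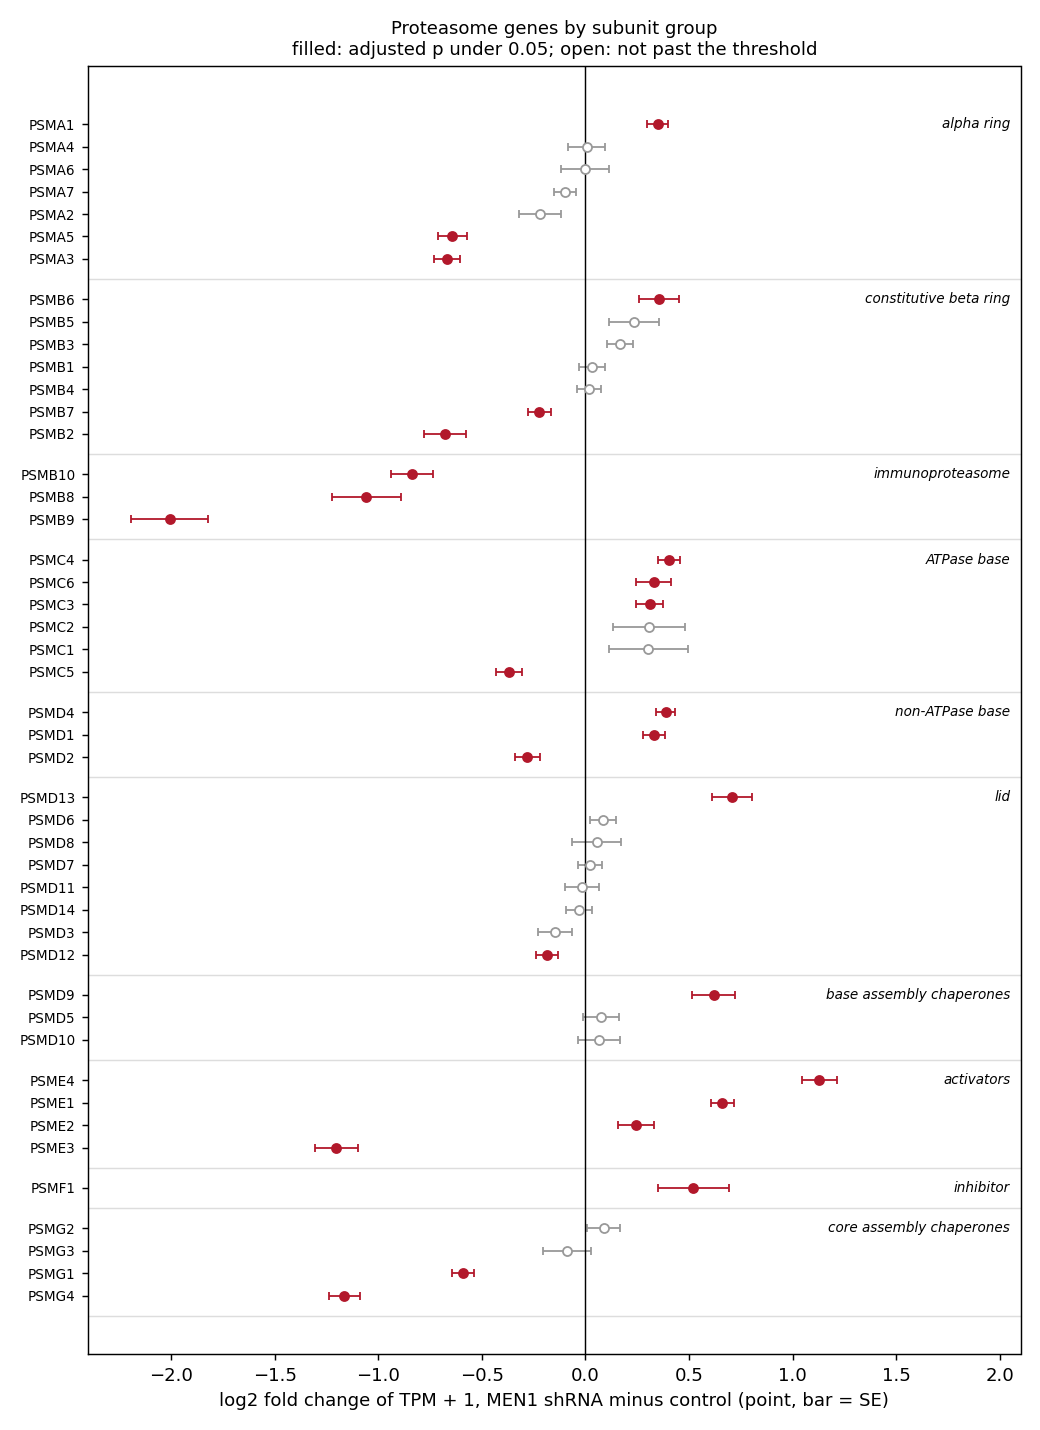
Log2 fold change (MEN1 shRNA minus control shRNA, on the log2(TPM + 1) scale) of the 46 tested proteasome genes, arranged by subgroup (3 libraries per group). Bars show the SE, which is narrower than the 95% confidence interval, and filled points mark genes with a limma adjusted p under 0.05. The immunoproteasome genes all lie below 0, the activators lie on both sides, and most lid genes lie near 0.

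Summed over all members, TPM was 7637, 8195 and 7959 in knockdown cells and 7596, 7370.1 and 7697 in control cells, which is 0.793% ± 0.0280 and 0.755% ± 0.0167 of all TPM (SD, n = 3 each). The lowest knockdown library lay within the control range. That overlap was lost under other scalings: the sums were 7857, 8456 and 8050.4 against 7494, 6941 and 7406 with median-of-ratios scaling, and after rescaling without globin and mitochondrial genes the knockdown libraries were again all higher. The difference in share of all TPM was 0.0375 percentage points. As a share of the TPM left without globin and mitochondrial genes, the difference was 0.0816 percentage points. Median-of-ratios scaling divides all genes of a library by the same factor, so it changes the sums but cannot change a share. The sums of subgroups differed in direction. Alpha ring genes summed to 1253, 1306 and 1228 against 1356, 1362 and 1347 TPM, lower in all 3 knockdown libraries. With median-of-ratios scaling they overlapped, at 1289, 1348 and 1242 against 1338, 1283 and 1296, and they did so after rescaling too. ATPase genes summed to 1195, 1331 and 1339.7 against 1096, 1062 and 1144 TPM, higher in all 3. Core assembly chaperones summed to 415, 396 and 396 against 532, 509 and 550.2 TPM, and the 3 low sums were again those of the knockdown libraries. The ATPase and core assembly chaperone sums stayed apart under both scalings. Sums of the non-ATPase base, base assembly chaperones and activators were higher in all 3 knockdown libraries by TPM and under both scalings. The constitutive beta ring, lid and inhibitor sums overlapped by TPM but were higher in all 3 under both. The libraries are bulk RNA, in which fewer cells of a type and less RNA per cell cannot be told apart.

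**Figure D2:**
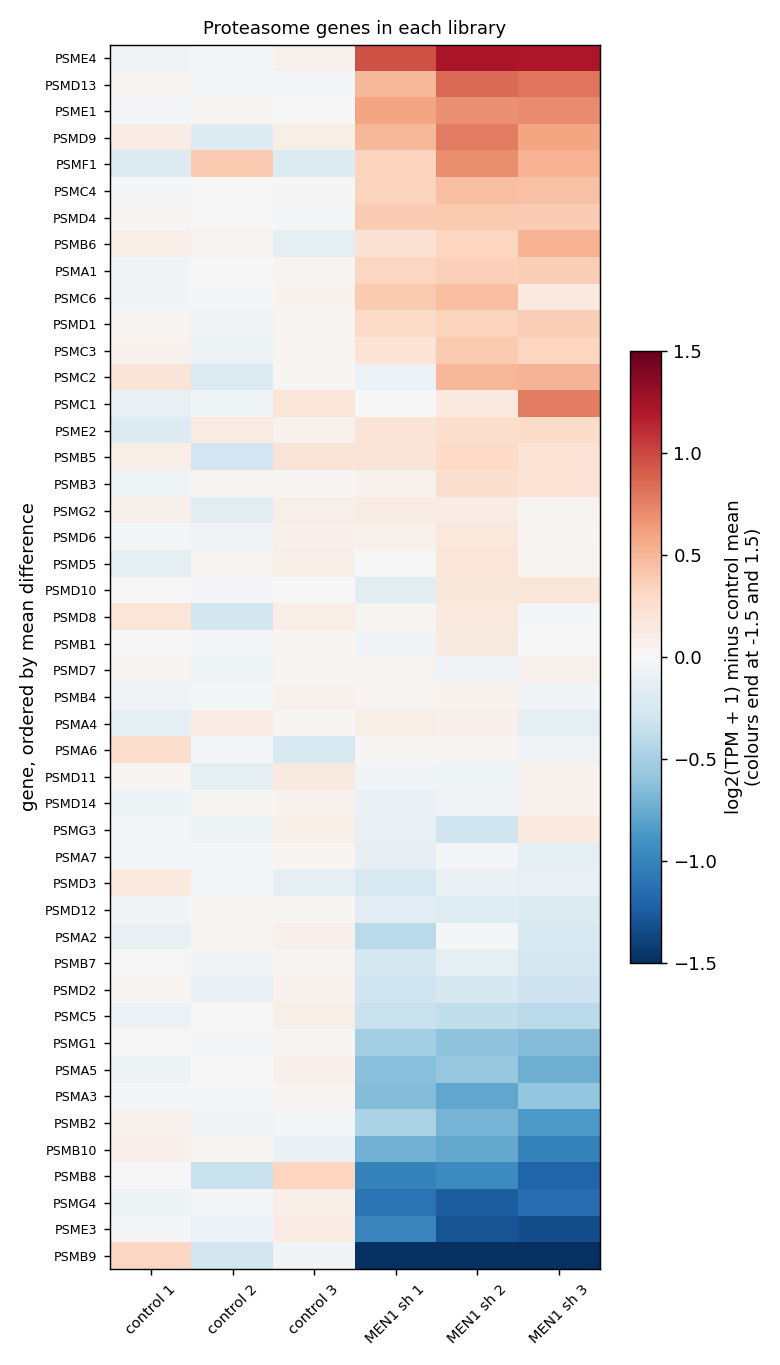
Each tested proteasome gene (row, ordered by mean difference) in each library (column), as log2(TPM + 1) minus the mean of the control libraries, with colours that end at -1.5 and 1.5. The knockdown columns run from red at the top (PSME4) to blue at the bottom (PSMB9), while the control columns stay pale for most genes, PSMF1 in control replicate 2 being an exception.

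The immunoproteasome genes were all lower in knockdown cells. The subgroup holds PSMB8, PSMB9 and PSMB10, whose products replace PSMB5, PSMB6 and PSMB7 at the cutting sites. PSMB8 and PSMB10 both passed, beside 31.5% of all genes in that direction. PSMB9 passed too, but it reached a TPM of 1 in the 3 control libraries only. The filter thus fixed its direction, and its call is not counted beside that share. PSMB8 (ENSG00000204264, chr6:32840717-32844679, minus strand), the immune form of the chymotrypsin-like subunit, had TPM 7.79, 8.12 and 6.75 in knockdown replicates 1, 2 and 3, against 16.9, 13.0 and 21.3 in the numbered controls. The groups did not overlap, and the mean was 7.55 ± 0.715 against 17.1 ± 4.11 (SD, n = 3 each), 44.3% of control. Its log2 fold change was -1.06 (SE 0.168, limma adjusted p 0.00133). PSMB10 (ENSG00000205220, chr16:67934506-67936864, minus strand), the immune form of the trypsin-like subunit, stood at 16.0, 15.4 and 12.9 TPM against 28.6, 27.4 and 25.2. All knockdown values were below all control values, at 54.6% of the control mean, with a log2 fold change of -0.84 (SE 0.101, limma adjusted p 3.59e-04).

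PSMB9 (ENSG00000240065, chr6:32844136-32859851, plus strand), the immune form of the caspase-like subunit, was the lowest-expressed tested member and had the largest fall. Its TPM was 0.166, 0.153 and 0.112 in knockdown cells and 4.72, 2.79 and 3.48 in control cells, so that 3.92% of the control mean remained. The log2 fold change was -2.01 (SE 0.187, limma adjusted p 1.18e-04), and because the level is near the added 1 it became -3.92 on the log2(TPM + 0.1) scale. Mean coverage per base over the gene was only 0.0204 to 0.0746 in knockdown cells against 0.968 to 1.45 in control cells. The deposited PSMB9 row runs from the PSMB8 start across TAP1, both on the opposite strand, and no source used here gives the strand setting of the quantification, so reads of these neighbours and of PSMB9 may not be fully separated. The RefSeq start of PSMB9 lies inside that row. With FPKM in place of TPM the log2 fold change was -1.31 (adjusted p 2.17e-04). On coverage scaled for depth PSMB9 stood at 4.74% of control, where the log2 fold change of coverage plus 1 was -0.37 (adjusted p 0.00101), PSMB8 at 47.1% and PSMB10 at 58.7%.

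Of the 3 cutting subunits these genes stand in for, 1 was higher, 1 lower and 1 did not pass. PSMB5, the standard chymotrypsin-like subunit, had TPM 153, 163 and 154 against 142, 108 and 152, with a log2 fold change of 0.23 that did not pass (95% interval -0.05 to 0.51, limma adjusted p 0.141). PSMB6, the caspase-like subunit, had TPM 214, 229 and 263 against 197, 188 and 165, higher in all 3 libraries, with a log2 fold change of 0.36 (SE 0.0958, limma adjusted p 0.0157). PSMB7, the trypsin-like subunit, had TPM 225, 243 and 224 against 269, 263 and 276, lower in all 3, with a log2 fold change of -0.22 (SE 0.0553, limma adjusted p 0.0108). The PSMB6 call was lost with no filter on low values (adjusted p 0.0617). The PSMB7 call was lost under median-of-ratios scaling (log2 fold change -0.14) and when TPM was rescaled without globin and mitochondrial genes (-0.16, adjusted p 0.0510). Of the TPM of the 6 cutting subunits together, the immune forms made up 3.89%, 3.60% and 2.98% in knockdown replicates 1, 2 and 3 and 7.63%, 7.17% and 7.75% in the controls. Each immune form also took a smaller share of its pair. PSMB8 made up 4.60% ± 0.343 against 11.2% ± 0.907 of PSMB8 and PSMB5 (SD, n = 3 each). For PSMB9 with PSMB6 the share was 0.0623% ± 0.0180 against 1.95% ± 0.451, and for PSMB10 with PSMB7 it was 6.01% ± 0.613 against 9.13% ± 0.680. In all 3 pairs the group ranges were separate.

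**Figure D3:**
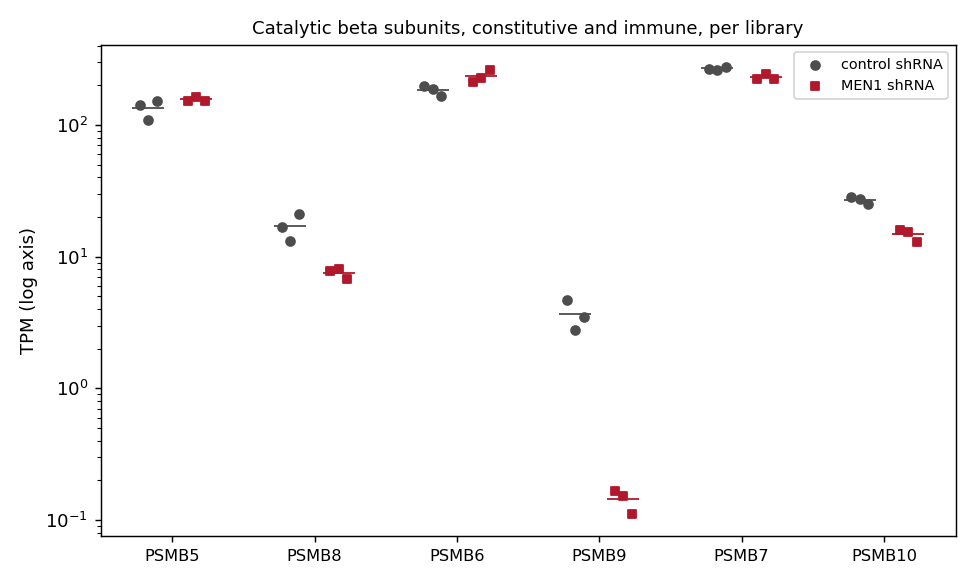
TPM (log axis) of each cutting subunit and its immune form in the 3 knockdown and 3 control libraries, 1 point per library, with a line at each group mean. The 3 immune forms lie lower in knockdown cells, from 0.112 to 0.166 against 2.79 to 4.72 TPM for PSMB9, while the knockdown points of PSMB5 and PSMB6 lie above the control points.

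PSMB8 and PSMB9 lie beside TAP1 and TAP2, which encode the transporter that carries peptides into the endoplasmic reticulum for MHC class I. The stretch from the start of TAP2 to the end of PSMB9 spans 38019 bases of chromosome 6, and all 4 of these genes were lower. TAP1 had TPM 4.77, 5.51 and 3.91 against 11.2, 10.2 and 10.6 (log2 fold change -1.04, limma adjusted p 3.66e-04). TAP2 had TPM 9.13, 6.09 and 5.54 against 18.4, 19.5 and 18.3 (-1.34, limma adjusted p 3.61e-04). Neither gene's groups overlapped. Of the 12 genes tested in the list of immunoproteasome partners and inducers, 6 were higher, 2 lower and 4 did not pass, with a median log2 fold change of 0.27 against -0.07 over all genes tested. ERAP1, which trims peptides for MHC class I, rose (0.60, limma adjusted p 4.14e-04). IRF1, a transcription factor of the interferon response picked out here after its values were seen, was higher too, with a log2 fold change of 0.57 (limma adjusted p 0.00632).

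White blood cells express the immune subunits strongly, so markers of other blood cells are given beside them. The 4 myeloid markers summed to 0.363 to 0.944 TPM in knockdown cells and 2.08 to 2.37 in control cells. Among them MPO and ELANE were at 0 in all 3 knockdown libraries and near 0 in control cells, and LYZ was the 1 tested. The 4 megakaryocyte markers, of which PF4 and PPBP were listed at 0 in every library and ITGA2B was the 1 tested, summed to 16.1 to 20.8 against 31.5 to 36.3 TPM. The 4 lymphoid markers summed to 0.00346 to 0.221 against 0.0123 to 0.204 TPM, with MS4A1 at 0 throughout. The megakaryocyte sum was ITGA2B almost alone. In the myeloid sum LYZ had TPM 0.151 to 0.268 against 1.27 to 1.67, and met the filter through control libraries only. CD14 overlapped between the groups, at 0.188 to 0.676 against 0.629 to 0.699 TPM. Both sums were lower in knockdown cells, as the immune subunits were, each mainly through 1 gene, and their part in the result was not tested.

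The promoters of these genes are shown because the fall of 3 immune subunits and the rise of 2 activators concern genes known for their interferon response. RefSeq start sites (GRCh38.p14) gave windows for 42 of the 48 genes, 51 windows in all. PSMA7, PSMB1, PSMB6, PSMB7, PSMD4 and PSMG3 had no entry. The letters GAAANNGAAA, the core of the interferon-stimulated response element, were searched on both strands from 250 bases before to 50 after each start, and the motifs were chosen after the values had been seen. Each sequence below runs 5′ to 3′ on the gene's own strand, from 150 bases before the start to 30 bases from the start on, in lower case with any match in capitals (TTTCNNTTTC is the same element on the other strand).
PSMB8, minus strand, chr6:32844018-32844197: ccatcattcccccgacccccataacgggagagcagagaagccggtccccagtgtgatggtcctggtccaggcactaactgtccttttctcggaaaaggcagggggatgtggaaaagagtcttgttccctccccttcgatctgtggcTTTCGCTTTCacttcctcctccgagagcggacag
PSMB10, minus strand, chr16:67936821-67937000: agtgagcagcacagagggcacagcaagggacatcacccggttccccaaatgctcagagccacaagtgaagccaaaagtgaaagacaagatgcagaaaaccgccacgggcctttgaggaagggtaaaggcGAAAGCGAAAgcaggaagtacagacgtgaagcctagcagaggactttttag
PSMB9, plus strand, chr6:32854042-32854221: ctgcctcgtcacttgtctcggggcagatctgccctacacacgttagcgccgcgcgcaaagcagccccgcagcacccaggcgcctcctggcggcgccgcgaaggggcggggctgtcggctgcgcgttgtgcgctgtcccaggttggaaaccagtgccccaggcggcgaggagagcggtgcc
PSME1, plus strand, chr14:24136044-24136223: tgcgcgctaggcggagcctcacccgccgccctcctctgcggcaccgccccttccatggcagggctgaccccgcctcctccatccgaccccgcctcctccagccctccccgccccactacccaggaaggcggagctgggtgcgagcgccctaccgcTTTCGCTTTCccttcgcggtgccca
PSME2, minus strand, chr14:24146581-24146760: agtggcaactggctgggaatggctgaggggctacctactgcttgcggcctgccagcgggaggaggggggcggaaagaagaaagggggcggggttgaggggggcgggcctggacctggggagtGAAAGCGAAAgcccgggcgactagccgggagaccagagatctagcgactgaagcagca
PSMG4, plus strand, chr6:3258797-3258976: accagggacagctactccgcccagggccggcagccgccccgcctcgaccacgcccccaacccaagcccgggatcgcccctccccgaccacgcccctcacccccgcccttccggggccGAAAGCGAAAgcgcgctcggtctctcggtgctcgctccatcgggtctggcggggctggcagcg
The same 10 letters, GAAAGCGAAA on one strand or the other, stand near a RefSeq start of PSMB8, PSMB10, PSME1, PSME2 and PSMG4. The starts shown for PSME2 and PSMG4 lie inside their deposited rows (chr14:24143362-24147570 and chr6:3231403-3303373), away from the 5′ end. The PSMB8 start shown lies inside its deposited row as well. A further PSMB8 start, at the 5′ end of that row, has a window without a match (chr6:32844650-32844829), and the PSMB9 window holds none. These exact letters were read off the members' own matches, so their number among the members is a description only. The open form GAAANNGAAA was found in 7 members (16.7%, against 4.38% of all 27305 genes with windows), the others being PSMA4 and PSMB4, which did not pass. Members with the letters moved in both directions: 2 were higher (PSME1 and PSME2), 3 lower (PSMB8, PSMB10 and PSMG4) and 2 did not pass. A match describes the sequence only and is not evidence of binding.

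Among the alpha ring genes, which form the gate of the core, 1 rose, 2 fell and 4 did not pass. PSMA1 (ENSG00000129084, chr11:14504874-14643635, minus strand) had TPM 238, 246 and 247 in knockdown cells and 185, 192 and 196 in control cells. The groups were apart, with a log2 fold change of 0.35 (SE 0.0505, limma adjusted p 8.49e-04). PSMA3 (ENSG00000100567, chr14:58244843-58272012, plus strand) went the other way, with TPM 131, 120.1 and 137 against 204, 202 and 212 and a log2 fold change of -0.67 (SE 0.0640, limma adjusted p 1.32e-04). Its control values exceeded every knockdown value by a wide margin, at 62.8% of control. PSMA5 fell as well (-0.64, limma adjusted p 2.31e-04), and by less on scaled coverage (-0.34, adjusted p 0.00594). PSMA2, PSMA4, PSMA6 and PSMA7 lay between -0.22 and 0.01 and did not pass. These subunits are built into the same ring in equal number, but control means of the tested genes already ran from 78.4 (PSMA5) to 267 TPM (PSMA7). Mean TPM of PSMA1 and PSMA3 was 244 ± 4.54 and 129 ± 8.76 in knockdown cells (SD, n = 3 each), and 191 and 206 in control cells. They were named as the highest and lowest of the ring, so a gap between them follows from the choice.

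Besides the cutting subunits described above, the constitutive beta ring has PSMB1, PSMB2, PSMB3 and PSMB4, which build the inner ring without cutting. PSMB2 (ENSG00000126067, chr1:35599541-35641526, minus strand) had TPM 48.9, 41.6 and 37.1 against 71.4, 66.2 and 67.3. It was lower in every knockdown library, with a log2 fold change of -0.68 (SE 0.101, limma adjusted p 9.66e-04). It was also the least expressed constitutive beta gene, at a control mean of 68.3 TPM, while PSMB1 had the highest control mean, at 426 TPM. PSMB3 (0.17, limma adjusted p 0.0531) narrowly missed the threshold and passed under 7 alternatives. PSMB1 and PSMB4 had log2 fold changes of 0.03 (interval -0.11 to 0.17) and 0.02 (interval -0.12 to 0.15). With PSMB6 and PSMB7, the constitutive beta ring had 1 gene higher, 2 lower and 4 that did not pass.

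Of the 6 ATPase genes, whose products form the ring that unfolds substrates, 3 rose, 1 fell and 2 did not pass. PSMC4 (ENSG00000013275, chr19:39971165-39981764, plus strand) had TPM 270.2, 293 and 291 against 212, 214 and 218, with a log2 fold change of 0.40 (SE 0.0537, limma adjusted p 5.56e-04). PSMC5 (ENSG00000087191, chr17:63827152-63832026, plus strand) had TPM 173, 169 and 164 against 205, 218 and 232, with a log2 fold change of -0.37 (SE 0.0617, limma adjusted p 0.00170). The products of both genes sit in the same ring, and their transcripts, at control means of 215 and 218 TPM, moved in opposite directions with no overlap. Both were named as the highest and lowest of the ring. FTSJ3, which overlaps PSMC5 on the opposite strand, was lower as well, at 52.0, 46.5 and 43.7 TPM against 87.0, 92.5 and 95.5, and its part in the PSMC5 value was not tested. PSMC3 rose (0.31, limma adjusted p 0.00585), and PSMC6 rose by TPM (0.33, limma adjusted p 0.0132) but not on scaled coverage (0.11, adjusted p 0.0802). PSMC1 and PSMC2 had similar positive values (0.30 and 0.31) with wider spread and did not pass (limma adjusted p 0.221 and 0.176). Without 1 library, PSMC1 ranged from 0.07 (without knockdown replicate 3, adjusted p 0.623) to 0.46 and did not pass. PSMC2 ranged from 0.20 (without control replicate 2, adjusted p 0.415) to 0.50 (without knockdown replicate 1, adjusted p 0.0110), where it passed. Both passed on scaled coverage.

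The 3 non-ATPase base genes all passed, 2 higher and 1 lower, beside 22.1% higher and 31.5% lower among all genes tested. PSMD4 (ENSG00000159352, chr1:151254709-151267479, plus strand), a ubiquitin receptor, had TPM 269, 271 and 268 in knockdown cells and 208, 207 and 202 in control cells, a narrow spread in each group. Its log2 fold change was 0.39 (SE 0.0467, limma adjusted p 3.59e-04). PSMD1, a large scaffold subunit, rose too (0.33, limma adjusted p 0.00140). PSMD2, the other large scaffold subunit (ENSG00000175166, chr3:184299198-184309050, plus strand), fell, with TPM 186, 194 and 185 against 234, 214 and 238 and a log2 fold change of -0.28 (SE 0.0596, limma adjusted p 0.00538). All knockdown values of PSMD2 were below all control values.

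In the lid, which holds the deubiquitinase PSMD14, 1 gene rose, 1 fell and 6 of 8 did not pass. PSMD13 (ENSG00000185627, chr11:236966-252984, plus strand) had TPM 223, 287 and 278 against 164, 158 and 156. The groups were far apart and the log2 fold change was 0.71 (SE 0.0966, limma adjusted p 6.37e-04), the largest rise among the subunits of core and regulatory particle. PSMD12 (ENSG00000197170, chr17:67337916-67366605, minus strand) was lower by a small margin, with TPM 71.6, 70.6 and 69.3 against 78.1, 81.6 and 81.1 and a log2 fold change of -0.18 (SE 0.0537, limma adjusted p 0.0217). That call was lost under 9 alternatives, among them median-of-ratios scaling (-0.10, adjusted p 0.157) and the fits without knockdown replicate 2 or 3 or control replicate 2 or 3 (highest adjusted p 0.0690). PSMD14 had a log2 fold change of -0.03 (interval -0.18 to 0.12). PSMD3, PSMD6, PSMD7, PSMD8 and PSMD11 lay between -0.15 and 0.09.

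The activators, caps that dock on the core in place of the regulatory particle, had 4 of 4 genes past the threshold, 3 higher and 1 lower, beside 22.1% higher and 31.5% lower among all genes tested. PSME4 (ENSG00000068878, chr2:53864069-53970993, minus strand) encodes a large single-chain cap of the nucleus. Its TPM was 133, 161 and 159.7 in knockdown replicates 1, 2 and 3 and 66.1, 67.5 and 71.6 in the controls. The mean was 151 ± 15.8 against 68.4 ± 2.84 (SD, n = 3 each), 221% of control, with a log2 fold change of 1.13 (SE 0.0850, limma adjusted p 5.43e-05), the largest rise among the 46. PSME3 (ENSG00000131467, chr17:42824385-42843760, plus strand) encodes the ring-shaped cap of the nucleus and went the other way, with TPM 83.4, 67.3 and 65.5 against 162, 156 and 181. Every knockdown value was below every control value, at 43.3% of control, and the log2 fold change was -1.20 (SE 0.104, limma adjusted p 8.83e-05). In control cells PSME3 transcripts outnumbered those of PSME4 in each library, and in each knockdown library the order was turned. BECN1, which overlaps PSME3 on the opposite strand, had TPM 61.2, 65.6 and 66.8 against 69.3, 68.6 and 72.8. ACYP2, which overlaps PSME4 on the opposite strand, rose as well, at TPM 8.69, 10.7 and 13.0 against 5.33, 4.12 and 4.07. Its log2 fold change was 1.09 (limma adjusted p 9.43e-04), and its part in the PSME4 value was not tested.

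PSME1 and PSME2 encode the partner chains of the interferon-inducible cap that works with the immunoproteasome. They lie 4394 bases apart on chromosome 14, on opposite strands, and both were higher while the immune cutting subunits were lower. PSME1 (ENSG00000092010, chr14:24136163-24138967, plus strand) had TPM 263, 282 and 287 against 173, 177 and 174, with no overlap, and a log2 fold change of 0.66 (SE 0.0541, limma adjusted p 7.45e-05). PSME2 (ENSG00000100911, chr14:24143362-24147570, minus strand) had TPM 108, 113 and 113 against 82.1, 102 and 98.2, also without overlap, and a log2 fold change of 0.24 (SE 0.0875, limma adjusted p 0.0471). The PSME2 call was lost in 7 of the alternatives, with no filter on low values (adjusted p 0.128), with no mean-variance trend (0.0852) and without any one library except control replicate 2. Without control replicate 1, its lowest control value, the log2 fold change was 0.15 (adjusted p 0.0947). Mean TPM was 277 ± 12.6 for PSME1 and 111 ± 2.97 for PSME2 in knockdown cells, against 175 ± 1.98 and 94.2 ± 10.7 in control cells (SD, n = 3 each), and whether the partners rose by different amounts was not tested.

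**Figure D4:**
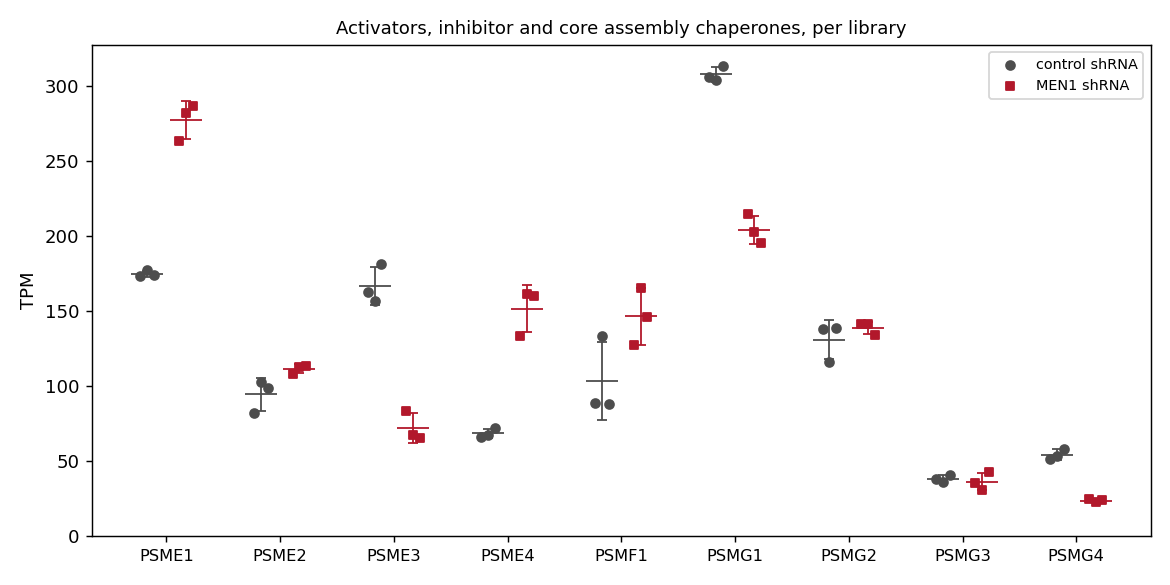
TPM of the activators, the inhibitor PSMF1 and the core assembly chaperones in each of the 3 knockdown and 3 control libraries. A line marks each group mean. PSME4 lies at 133 to 161 against 66.1 to 71.6 TPM and PSME3 at 65.5 to 83.4 against 156 to 181 TPM, in opposite directions, while the points of PSMF1 overlap.

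PSMF1 (ENSG00000125818, chr20:1113240-1189415, plus strand), named for inhibiting the core in the test tube, had TPM 127, 165 and 146 in knockdown cells and 88.3, 133 and 87.7 in control cells. Control replicate 2 lay within the knockdown range, so the groups overlapped. The log2 fold change of 0.52 passed (SE 0.171, limma adjusted p 0.0348), but not with no filter on low values (adjusted p 0.129), with no mean-variance trend (0.0587), or without knockdown replicate 2 (0.110), knockdown replicate 3 (0.0783), control replicate 1 (0.109) or control replicate 3 (0.105). FBXO7, an F-box protein that binds the product of PSMF1, fell from TPM 382, 434 and 422 to 206, 164 and 175 (-1.18, limma adjusted p 6.59e-05), with no overlap.

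Among the core assembly chaperones, which come in the pairs PSMG1 with PSMG2 and PSMG3 with PSMG4, 1 member of each pair fell and the other did not pass. PSMG1 (ENSG00000183527, chr21:39174769-39183488, minus strand) had TPM 214, 202 and 195 against 306, 304 and 313, a log2 fold change of -0.59 (SE 0.0544, limma adjusted p 1.14e-04). PSMG4 (ENSG00000180822, chr6:3231403-3303373, plus strand) had TPM 24.5, 22.4 and 24.0 against 51.3, 53.1 and 58.0, a log2 fold change of -1.16 (SE 0.0739, limma adjusted p 3.32e-05). In both genes the groups were well apart. The partners PSMG2 and PSMG3 had log2 fold changes of 0.09 (interval -0.10 to 0.27) and -0.09 (interval -0.36 to 0.18). On scaled coverage PSMG4 stood at 54.4% of control, against 43.6% by TPM. Its log2 fold change of coverage plus 1 was -0.45 (adjusted p 0.00135), a small value because the coverage itself, at means of 0.782 and 1.44, is near the added 1. SLC22A23, which overlaps PSMG4 on the opposite strand, had TPM 48.3, 57.0 and 56.7 against 32.4, 14.6 and 35.5, a difference in the other direction. The part of SLC22A23 in the PSMG4 value was not tested. Of the base assembly chaperones, PSMD9 (ENSG00000110801, chr12:121888732-121918297, plus strand) rose, with TPM 124, 149 and 132 against 94.9, 76.2 and 92.8 and a log2 fold change of 0.62 (SE 0.104, limma adjusted p 0.00170), and by less on scaled coverage (0.37, adjusted p 0.0200). PSMD5 (0.08) and PSMD10 (0.07), the other chaperones of the base, did not pass.

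Genes that work with the proteasome moved in both directions as well, and the lists were read by their counts beside the background of 22.1% higher and 31.5% lower. Of 12 other subunits and bound factors, 3 were higher, 2 lower and 7 did not pass, with a median log2 fold change of 0.03. UBE3C, a ubiquitin ligase bound to the proteasome, had TPM 80.6, 84.3 and 80.9 against 43.2, 45.7 and 45.1 (0.86, limma adjusted p 3.65e-05). The proteasome-bound deubiquitinase USP14 (0.22, limma adjusted p 0.0177) and the ubiquitin receptor ADRM1 (0.19, limma adjusted p 0.0200) rose by little. The USP14 call was lost on scaled coverage (adjusted p 0.0934) and without knockdown replicate 2 or 3 or control replicate 1 or 2 (highest 0.0624). The ADRM1 call was lost with no mean-variance trend (0.0606), with the replicate block (0.0587) and without knockdown replicate 2 or 3 or control replicate 2 or 3 (highest 0.0695). Of 17 genes of ubiquitin supply, activation and shuttling, 9 were higher, 4 lower and 4 did not pass, with a median of 0.19. UBA6, a ubiquitin-activating enzyme, fell (-0.70, limma adjusted p 2.14e-04), and NPLOC4, a cofactor of the segregase VCP, rose (0.53, limma adjusted p 2.53e-04).

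The transcriptional control list holds NFE2L1, the activator of proteasome genes, with its processing enzymes, its small MAF partners and the CCAAT-binding factor NFY. Of 11 genes 10 were tested, 3 were higher, 2 lower and 5 did not pass, with a median log2 fold change of 0.17, and DDI1 was listed at 0. NGLY1, which removes glycans from NFE2L1 and thereby frees its activity, had TPM 40.1, 39.6 and 36.2 against 65.7, 71.5 and 65.9 (-0.79, limma adjusted p 9.33e-05). The small MAF genes MAFG (39.6, 51.5 and 53.5 against 23.7, 24.7 and 23.8 TPM, 0.96, limma adjusted p 3.36e-04) and MAFF (1.28, limma adjusted p 7.56e-04) rose, and so did the NFY subunit NFYA (0.49, limma adjusted p 0.00217). NFE2L1 itself, named here after its value was seen, had TPM 42.1, 49.1 and 51.2 against 34.4, 43.2 and 43.2, and its log2 fold change of 0.24 did not pass (limma adjusted p 0.119), but passed under median-of-ratios scaling (adjusted p 0.0322), quantile normalization (0.0384) and the replicate block (0.0386). In the promoter windows, the letters TGACNNNGC, the core of the antioxidant response element that NFE2L1 with a MAF partner can bind, were found in 15 of 42 members (35.7%, against 16.1% of all genes), of which 6 were higher, 4 lower and 5 did not pass. CCAAT was found in 20 of 42 (47.6%, against 39.7%), of which 1 was higher, 7 lower, 11 did not pass and 1 was not tested. Among all genes tested 22.1% were higher and 31.5% lower, and nothing is read from these counts about the motifs. Both were searched on both strands, and the counts describe these letters only.

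Overlap between deposited gene models was common among the proteasome genes. An opposite-strand gene whose mean TPM reached 1 overlapped 17 of the 48, and one on the same strand overlapped 5. Since no source used here gives the strand setting, the reads of such pairs may not be fully separated. PSMA3 is one of them: the antisense gene PSMA3-AS1 rose from TPM 22.9, 26.9 and 26.6 to 39.1, 44.9 and 40.3, while PSMA3 fell.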

How the data were processed

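Poly(A)-selected RNA of 6 HUDEP-2 libraries was sequenced with a directional kit, per the labels' protocols. The submitters' processing notes name FastQC, Trimmomatic, STAR 2.7.1a, Picard 2.20.4, StringTie 2.0.4 and the build hg38, and no source used here gives the annotation or the strand setting. The authors deposited, per the file headers, coverage (mean reads per base, a signal not scaled for depth), FPKM and TPM for 62754 genes, of which 20393 have no name. TPM sums to 1000000 in each library, so it is a share, and more of an abundant transcript means less of the rest. In control replicate 2, negative residues close to 0 in 2 genes of the deposited TPM or coverage values were set to 0. No read counts were used. The depth was read from the ratio of coverage to FPKM.

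Genes with TPM of 1 or more in 3 of 6 libraries (14294) were fitted on log2(TPM + 1) with limma 3.58.1 in R 4.3.3 (eBayes, trend on). Tests were 2-sided, p-values were adjusted by Benjamini-Hochberg across the 14294, and the threshold was 0.05. The pseudocount of 1 understates changes of low genes. The fit was tested on simulated data. Shares and sums have no p-value, since an exact permutation test of 3 against 3 cannot go below 0.1 and the members were picked as a list. Groups came from the sample titles. Tables and figures used Python 3.11.15, pandas 2.3.3, NumPy 2.4.6 and matplotlib 3.10.9. Full values were given for the cutting subunits, PSMF1 and, per subgroup, the genes with the highest and lowest log2 fold change past the threshold, and from each partner list for at most 4 genes with the lowest adjusted p. Members and lists were chosen with earlier results of these data known. Some genes of the partner lists that the naming rule selects are not reported here. Promoter sequences are from RefSeq (GRCh38.p14). Alternatives were another pseudocount, other filters, FPKM, median-of-ratios scaling, quantile normalization, rescaling without globin and mitochondrial genes, no trend, a replicate block, each library left out and, added after seeing the data, coverage scaled for depth.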

Additional observations from a re-analysis of the deposited data

How the results depend on the processing

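The numbers of proteasome genes higher and lower, 13 and 13, stayed within 10 to 15 and 11 to 13 under every alternative run, and at 11 to 15 and 12 to 13 with any 1 library left out. All genes past the threshold were 6577 to 7542 without 1 library. Of 1055 comparisons of a single gene with an alternative, 974 kept direction and side of the threshold, 37 lost a call, 15 gained one and 29 turned direction, none of these in a gene that had passed. Of the 26 proteasome genes that passed, 20 did so under every alternative that tested them (PSMB9 was not tested with a mean TPM of 5 or more), and PSMB6, PSMB7, PSMC6, PSMD12, PSME2 and PSMF1 did not. The direction turned for PSMA6 under FPKM (0.0315), median-of-ratios scaling (0.0874), quantile normalization (0.0241), rescaling without globin and mitochondrial genes (0.0664) and scaled coverage (0.123), all as log2 fold changes. It turned for PSMD11 under the first 4 of these (0.0157, 0.0712, 0.0639 and 0.0504), for PSMD14 under FPKM (0.00161), median-of-ratios scaling (0.0571) and rescaling (0.0362), for PSMB1 under quantile normalization (-0.0207) and for PSMD8 on scaled coverage (-0.00415). Without 1 library, log2 fold changes ran from -0.0579 to 0.0851 for PSMA4, -0.116 to 0.128 for PSMA6, -0.0230 to 0.0664 for PSMB1, -0.00940 to 0.0504 for PSMB4, -0.00983 to 0.0546 for PSMD7, -0.0854 to 0.143 for PSMD8, -0.0907 to 0.0515 for PSMD11, -0.0738 to 0.00245 for PSMD14 and -0.205 to 0.0179 for PSMG3. None of these genes passed in the report, and the cause was not tested. The immunoproteasome share of cutting subunit TPM differed by -4.03 percentage points, and by -4.23 to -3.77 without 1 library. A share of scaled coverage differed by -6.45 but is another quantity, since that scale cannot be set side by side across genes. In knockdown cells PSMB5 had scaled coverage 19.1 at mean TPM 156, and PSMB6 had 131 at 235. The proteasome share of library TPM differed by 0.0375 percentage points, by 0.0243 to 0.0522 without 1 library, by 0.0841 under median-of-ratios scaling and by 0.0816 after rescaling. The share of all calls that were higher was 41.2%, and 49.5%, 49.1% and 47.2% under median-of-ratios scaling, quantile normalization and rescaling. A block on the replicate number left 13 proteasome genes higher and 12 lower, with 7012 of all genes past the threshold. The numbers were not taken as pairs, since same-numbered libraries correlated at only 0.0171, -0.0265 and -0.0124 after removing group means. PSMB9 had a mean coverage per base of 0.0204 to 0.0746 in knockdown cells, which limits the precision of its remaining level.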

Other observations

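Rows named after proteasome genes but outside the rule carried little signal, apart from a few. Of 44 pseudogene rows 3 were expressed enough to be tested and 0 passed in limma, and 0 had a 95% interval that left out 0. The most abundant, PSMC1P1, had TPM 14.3, 18.4 and 17.9 against 13.8, 13.5 and 15.2, a log2 fold change of 0.23 (limma adjusted p 0.125), and it shares sequence with its parent PSMC1, so reads could be split between them. Of 7 noncoding partners, 1 was tested: PSMA3-AS1 rose, with a log2 fold change of 0.68 (limma adjusted p 5.27e-04). Its position covers part of PSMA3, which fell.

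Genes named for binding proteasome subunits moved apart. PSMC3IP, a meiotic recombination factor first found with PSMC3, had TPM 38.4, 38.3 and 44.6 against 27.0, 30.4 and 26.5 (0.52, limma adjusted p 0.00207). PSME3IP1, which binds the PSME3 cap, had TPM 73.9, 70.0 and 70.4 against 78.7, 90.6 and 84.1 (-0.24, limma adjusted p 0.0205), lower in all 3 libraries as PSME3 was, though by less.

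The spread of TPM across the 14 constitutive core genes, which are used in equal number in the particle, was a coefficient of variation of 44.1% of their group means in control cells and 50.7% in knockdown cells.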
